A study of Mus musculus with 24 samples.

Results

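The period genes Per1, Per2 and Per3, the cryptochrome genes Cry1 and Cry2, and Ciart (also called Chrono) encode the repressors of the mammalian circadian clock. These 6 genes are 6 of the 11645 genes measured, and they were read by 13 of the 45037 probe sets that are not controls. Every probe set that the platform annotation gives to 1 of these genes and to no other gene was taken. The genes were picked with the differences between diets on these same arrays already known, so their levels by diet and the differences between diets are given as a description, with no test. The differences between processing batches were not used in that choice and were tested.

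The study asked how foods that humans and chimpanzees eat alter gene expression in mice. Female NMR-1 laboratory mice, 8 weeks old at the start, ate for 2 weeks 1 of 4 diets: a chimpanzee diet of vegetables, fruit and yogurt, a cafeteria diet of cooked human food, a fast food diet from McDonald's, or the mouse pellets on which they had been raised. The cafeteria and fast food diets are called the human diets. Each diet had 6 mice with 1 array per mouse, 3 in each of 2 labelled processing batches, made from RNA of the right cerebral hemisphere. No group carried an allele or received an agent other than food, and littermates had been spread over the groups. The hour of death is not given in the sources used here. A hemisphere holds many regions and cell types, and in such bulk RNA fewer cells of a type and less RNA per cell cannot be told apart.

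Levels are log2 values that the authors computed from the probes of each probe set, so that a difference of 1 on this scale is a change by a factor of 2. The SD of the log2 values within an array, a measure of how far its bright and dim probe sets lie apart, was 1.81 to 2.06 on 23 arrays and 1.58 on pellet batch 2 replicate 1, whose median correlation with the other arrays was 0.892 where those of the other 23 were at least 0.980. The 18S ribosomal RNA probe sets read 5.87 to 6.58 on the log2 scale in the first labelled batch and 4.88 to 5.15 in the second on the 3 foods other than pellets. On pellets the order was turned around, with 4.96 to 5.51 in the first and 5.92 to 6.42 in the second. The difference between pellet and chimpanzee is therefore also given by labelled batch for the main probe set of each of the 6 genes. Within a labelled batch, however, the pellet and chimpanzee arrays differed in their 18S readings. The 8 neuron markers were all measured, with a mean log2 level per diet of 9.62 to 9.94.

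In the clock, the transcription factors CLOCK and BMAL1 bind DNA elements called E-boxes and switch on the period and cryptochrome genes, whose proteins form complexes that return to the nucleus and repress CLOCK and BMAL1. Ciart binds the same factors and represses them as well, and a further loop acts through D-boxes, bound by Dbp, Tef and Hlf. The loop runs in the suprachiasmatic nucleus, which light sets, and in most other brain regions and tissues, where meal times and hormones such as glucocorticoids also set its phase. Per1 and Per2 are in addition induced by cAMP signalling and by glucocorticoids.

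The E-box and D-box were looked for in the promoters, because they are the elements through which the loops act on these genes. RefSeq promoter windows on GRCm38.p6, of 250 bases before and 50 after each start, were present for 5 of the 6 genes, with 2 starts for Per1; Per2 has none in the table. The windows were searched on both strands for the E-box (CACGTG, which reads the same on either strand), the variant E-box (CACGTT or AACGTG), the D-box (TTATGTAA or TTACATAA) and the cAMP response element (TGACGTCA). Below, the 250 bases before the start are printed for the 4 windows in which an E-box or a D-box was found, 5′ to 3′ on the gene's own strand, with the E-boxes in capitals for Per1, Ciart and Cry1 and the D-boxes in capitals for Per3.
Per1, upstream start, chr11:69098699-69098948, plus strand: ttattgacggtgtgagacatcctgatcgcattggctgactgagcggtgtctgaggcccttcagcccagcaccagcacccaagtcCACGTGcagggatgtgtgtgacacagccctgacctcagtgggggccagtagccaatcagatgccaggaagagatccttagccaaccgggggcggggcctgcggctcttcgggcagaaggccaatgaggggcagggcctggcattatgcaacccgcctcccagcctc
Ciart, chr3:95882229-95882478, minus strand: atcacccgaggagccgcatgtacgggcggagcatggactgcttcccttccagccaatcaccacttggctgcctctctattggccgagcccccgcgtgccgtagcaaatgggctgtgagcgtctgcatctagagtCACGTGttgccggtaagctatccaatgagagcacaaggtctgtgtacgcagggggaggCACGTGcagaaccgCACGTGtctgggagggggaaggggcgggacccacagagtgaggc
Cry1, chr10:85185055-85185304, minus strand: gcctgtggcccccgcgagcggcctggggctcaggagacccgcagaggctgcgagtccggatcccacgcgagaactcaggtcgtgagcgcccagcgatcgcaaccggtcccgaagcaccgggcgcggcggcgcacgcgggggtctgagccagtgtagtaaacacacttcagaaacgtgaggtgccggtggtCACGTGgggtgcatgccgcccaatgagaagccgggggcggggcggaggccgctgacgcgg
Per3, chr4:151044666-151044915, minus strand: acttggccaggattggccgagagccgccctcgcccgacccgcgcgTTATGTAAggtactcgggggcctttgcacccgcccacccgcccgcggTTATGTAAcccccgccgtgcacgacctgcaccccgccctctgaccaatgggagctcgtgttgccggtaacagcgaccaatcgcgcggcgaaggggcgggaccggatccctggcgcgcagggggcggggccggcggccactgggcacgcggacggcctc

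The window of Ciart held 3 E-boxes, which began 116, 58 and 44 bases before the start. Of all 32851 windows in the table, 7.15% held an E-box and 0.088% held at least 3. Per1 held 1 E-box, which began 166 bases before its upstream start, and none in the window of its other start at chr11:69099902-69100201. Cry1 held 1, 60 bases before the start, with a variant E-box at 79 bases before the start. Cry2 held only a variant E-box, 166 bases before its start, an element present in 4.68% of windows. Per3 held 2 D-boxes, which began 205 and 158 bases before the start, where 0.938% of windows held a D-box and 0.0213% held at least 2. No window of these genes held the cAMP response element, which 1.79% of all windows held. None of these matches overlapped, and a match in letters is not a binding site.

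Per1 encodes a period protein whose transcription responds quickly to light and to signalling. Its log2 level on the chimpanzee diet had a lowest value of 7.22, a median of 7.37 and a highest of 8.00. On fast food these values were 6.61, 6.85 and 7.06. On the cafeteria diet they were 6.55, 6.84 and 7.17, and on pellets 6.55, 6.73 and 6.93. Every array of the chimpanzee diet thus lay above all 18 arrays of the other diets, while the arrays of fast food, cafeteria and pellet overlapped each other. Chimpanzee arrays averaged a log2 level of 7.51 ± 0.34, fast food 6.84 ± 0.20, cafeteria 6.84 ± 0.28 and pellet 6.72 ± 0.14 (SD, n = 6 each). The mean of the human diets was lower than that of the chimpanzee diet by a log2 difference of -0.67 (SE 0.13), a factor of 1.59. Pellet was lower than chimpanzee by a log2 difference of -0.79 (SE 0.15), a factor of 1.73. Fast food and cafeteria differed by 0.00 on the log2 scale (SE 0.15). The difference between human and chimpanzee diets was much the same in each labelled batch, at -0.66 in batch 1 and -0.67 in batch 2. Pellet minus chimpanzee was -0.70 and -0.88 on the log2 scale in these batches, so Per1 showed its pattern on both sets of pellet arrays.

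**Figure D1:**
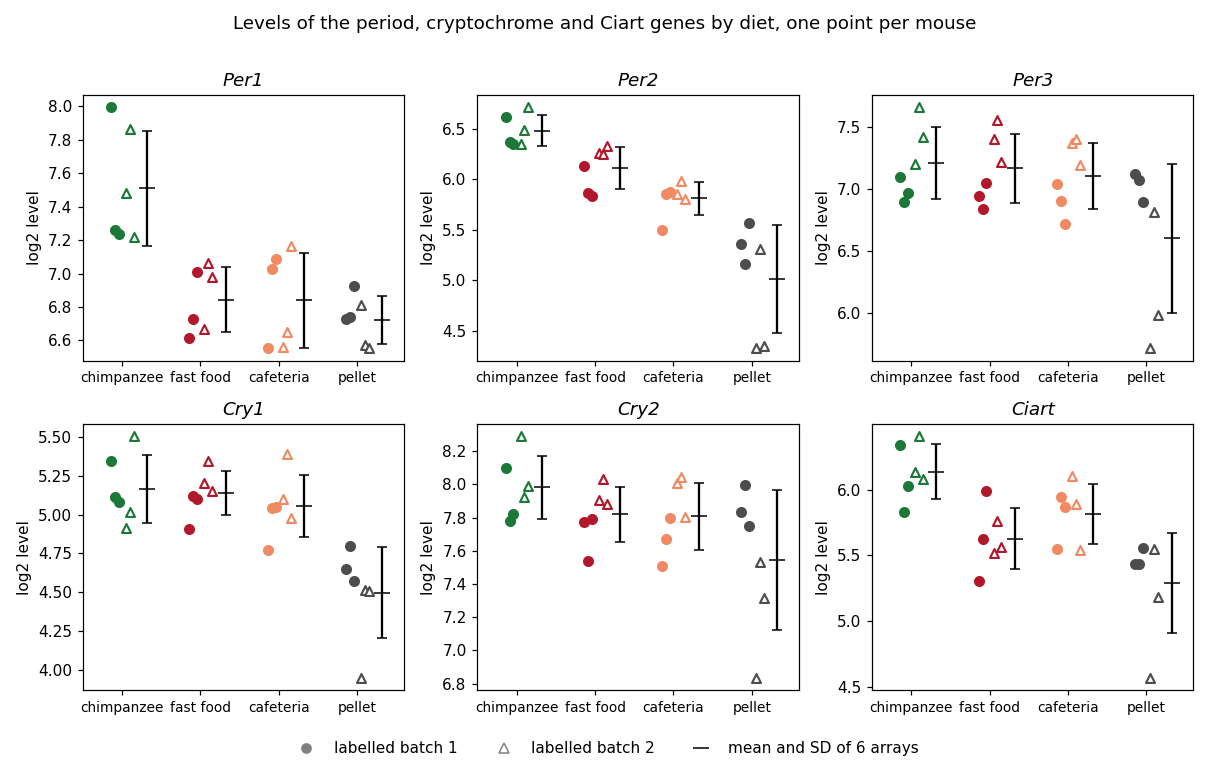
The log2 level (vertical axes, which do not start at 0) of the main probe set of each gene is plotted for the 4 diets, with 1 point per mouse, filled circles for labelled batch 1 and open triangles for labelled batch 2; black bars give the mean with 1 SD on either side (n = 6). All 6 chimpanzee points of Per1 sit at 7.22 or above and those of Per2 at 6.35 or above. In all 6 genes the lowest point is a pellet array of labelled batch 2, though in Per1 only just, at 6.551 against 6.553 for a cafeteria array.

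Per2, which like Per1 carries the cryptochromes into the nucleus, had mean levels on its main probe set that stepped down over the 4 diets. This main probe set, the one with the highest mean of 3, had log2 levels on the chimpanzee diet with a lowest value of 6.35, a median of 6.43 and a highest of 6.71. On fast food the values were 5.83, 6.19 and 6.32. On the cafeteria diet they were 5.50, 5.85 and 5.98, and on pellets 4.33, 5.24 and 5.56. The chimpanzee arrays lay above all others, by a small gap between 6.35 and 6.32, and fast food overlapped with cafeteria and cafeteria with pellet. Mean log2 levels of Per2 were 6.48 ± 0.15 with chimpanzee food, 6.11 ± 0.21 with fast food, 5.81 ± 0.16 with cafeteria food and 5.01 ± 0.54 with pellets (SD, n = 6 each). Cafeteria was lower than chimpanzee by a log2 difference of -0.67 (SE 0.18) and fast food by -0.37 (SE 0.18). On this probe set fast food lay above cafeteria by a log2 difference of 0.30 (SE 0.18), while the other probe sets of Per2 gave -0.04 (SE 0.11) and -0.06 (SE 0.19). In labelled batch 1 the fast food arrays, at 5.83 to 6.13, overlapped with the cafeteria arrays, at 5.50 to 5.88. In labelled batch 2 they did not, at 6.24 to 6.32 and 5.81 to 5.98, with 3 arrays per diet. How many of all features separate in this way was not counted, so nothing is read from it.

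Pellet was lower than chimpanzee in Per2 by a log2 difference of -1.47 (SE 0.18), a factor of 2.77, which by size ranked 1 of 13839 features. Since the genes were picked with such differences known, nothing is read from this rank. The difference was -1.08 in labelled batch 1 and -1.85 in labelled batch 2. On the main probe set alone, the lowest Per2 levels, 4.33 and 4.35, came from pellet replicates 1 and 3 of labelled batch 2. The other pellet array of that batch, at 5.31, lay within the 5.16 to 5.56 of the pellet arrays of labelled batch 1. The 3 pellet arrays of labelled batch 1, whose array SD of 1.95 to 2.04 is in the range of the other diets, still lay below all 9 arrays of the other diets in that batch but the cafeteria array at 5.50. Against fast food, pellet was lower in Per2 by a log2 difference of -1.10 (SE 0.18), and against cafeteria by -0.80 (SE 0.18).

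The other probe sets of Per2 gave smaller differences. Probe set 1457350_at averaged a log2 level of 5.58 ± 0.21 with chimpanzee food, 5.26 ± 0.23 with fast food, 5.30 ± 0.19 with cafeteria food and 5.06 ± 0.11 with pellets (SD, n = 6). It kept the highest mean on the chimpanzee diet and the lowest on pellets, with a log2 difference of -0.31 (SE 0.10) for the human diets and of -0.53 (SE 0.11) for pellet against chimpanzee, the latter at -0.65 in labelled batch 1 and -0.41 in labelled batch 2. Probe set 1417603_at, the dimmest, had overlapping diets, with a log2 difference of -0.18 (SE 0.17) for the human diets and of -0.06 (SE 0.19) for pellet. The latter was -0.37 in labelled batch 1 and 0.24 in labelled batch 2. On that probe set pellet lay above fast food by a log2 difference of 0.15, opposite to the main probe set. The highest levels of 1417603_at, 5.70 and 5.26, came from pellet replicates 1 and 3 of labelled batch 2, with 4.27 on replicate 2. The same replicates 1 and 3 gave the lowest levels on the main probe set, 4.33 and 4.35. On 1457350_at they read 5.22 and 5.03, against 4.94 on replicate 2. Their low readings were thus limited to the main probe set, and the cause was not tested.

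**Figure D2:**
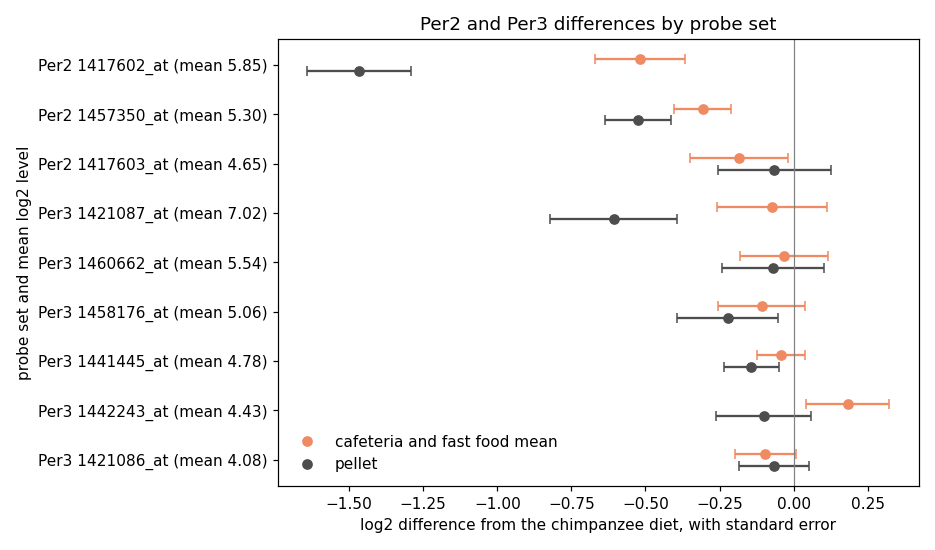
The log2 difference from the chimpanzee diet (horizontal axis) is plotted with its standard error for each of the 3 probe sets of Per2 and the 6 of Per3, in order of mean log2 level within each gene. The main probe sets of Per2 and Per3 show the lowest pellet values of their gene, at -1.47 and -0.61, while the other 5 probe sets of Per3 lie between -0.22 and -0.07 for pellet.

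Ciart, like the other 5 genes on their main probe sets, had its highest mean on the chimpanzee diet. In Per3 and Cry1 the margin over fast food was only 0.04 and 0.02 on the log2 scale (SE 0.21 and 0.13). Without chimpanzee batch 2 replicate 2, human minus chimpanzee turned to 0.012 in Per3. Without replicate 3 of that batch it turned to 0.007 in Cry1. The log2 levels of Ciart on the chimpanzee diet had a lowest value of 5.83, a median of 6.11 and a highest of 6.40. On the cafeteria diet the values were 5.54, 5.88 and 6.10. On fast food they were 5.30, 5.59 and 5.99, and on pellets 4.57, 5.44 and 5.56. Each diet overlapped with the next in this order, although every chimpanzee array lay above every pellet array. Ciart averaged a log2 level of 6.14 ± 0.21 with chimpanzee food, 5.82 ± 0.23 with cafeteria food, 5.63 ± 0.23 with fast food and 5.29 ± 0.38 with pellets (SD, n = 6). The mean of the human diets was lower than chimpanzee by a log2 difference of -0.42 (SE 0.14), which was -0.35 in labelled batch 1 and -0.48 in labelled batch 2. Pellet was lower than chimpanzee by a log2 difference of -0.85 (SE 0.16), with -0.59 and -1.11 in the batches. Fast food lay below cafeteria in Ciart by a log2 difference of -0.19 (SE 0.16).

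Cry1, a cryptochrome that represses CLOCK and BMAL1 directly, was set apart by the pellet diet alone. Its log2 levels had a lowest value of 4.91, a median of 5.10 and a highest of 5.50 on the chimpanzee diet. On fast food these were 4.91, 5.13 and 5.35, and on the cafeteria diet 4.77, 5.05 and 5.39. On pellets they were 3.95, 4.54 and 4.80. The 3 foods other than pellets overlapped over nearly their whole range, and 1 pellet array, at 4.80, lay above the lowest cafeteria array. Cry1 averaged a log2 level of 5.16 ± 0.22 with chimpanzee food, 5.14 ± 0.14 with fast food, 5.06 ± 0.20 with cafeteria food and 4.50 ± 0.29 with pellets (SD, n = 6). Pellet was lower than chimpanzee by a log2 difference of -0.66 (SE 0.13), with -0.51 in labelled batch 1 and -0.82 in labelled batch 2. The human diets differed from chimpanzee in Cry1 by -0.06 on the log2 scale (SE 0.11), with -0.18 and 0.05 in the batches.

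Cry2, the other cryptochrome, had log2 levels between 7.78 and 8.29 on the chimpanzee diet. It was between 7.54 and 8.03 on fast food, between 7.51 and 8.05 on the cafeteria diet and between 6.83 and 7.99 on pellets. All diets overlapped. Averages on the log2 scale were 7.98 ± 0.19 with chimpanzee food, 7.82 ± 0.17 with fast food, 7.81 ± 0.20 with cafeteria food and 7.54 ± 0.42 with pellets (SD, n = 6). Pellet was lower than chimpanzee by a log2 difference of -0.44 (SE 0.15), with -0.04 in labelled batch 1 and -0.84 in labelled batch 2. Set beside chimpanzee arrays of the other labelled batch, pellet means were 7.86 (batch 1) against 8.07 and 7.23 (batch 2) against 7.90 (n = 3 each). The human diets differed from chimpanzee in Cry2 by -0.17 on the log2 scale (SE 0.13).

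Per3, whose loss in mice alters the clock less than that of Per1 or Per2, had log2 levels between 6.89 and 7.66 on the chimpanzee diet. It lay between 6.84 and 7.56 on fast food, between 6.72 and 7.40 on the cafeteria diet and between 5.71 and 7.12 on pellets. Chimpanzee food gave an average log2 level of 7.21 ± 0.29, fast food 7.17 ± 0.28, cafeteria food 7.11 ± 0.27 and pellets 6.60 ± 0.60 (SD, n = 6). The 3 foods other than pellets thus differed by less than the spread among arrays of 1 diet. Pellet minus chimpanzee was -0.61 on the log2 scale (SE 0.21), but 0.04 in labelled batch 1 and -1.26 in labelled batch 2, where the 3 pellet arrays were at 5.71, 6.82 and 5.98. Set beside chimpanzee arrays of the other labelled batch, pellet means were 7.03 (batch 1) against 7.43 and 6.17 (batch 2) against 6.99 (n = 3 each). The other 5 probe sets of Per3, with mean log2 levels of 4.08 to 5.54, gave -0.22 to -0.07 for pellet minus chimpanzee and -0.11 to 0.18 for the human diets minus chimpanzee.

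**Figure D3:**
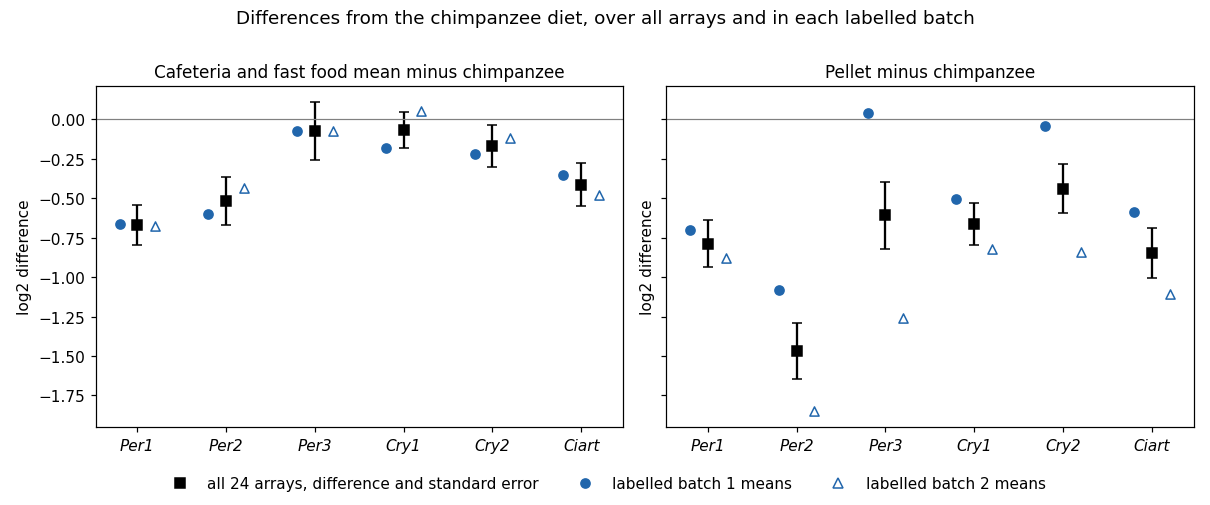
The log2 difference from the chimpanzee diet (vertical axes) is plotted for the mean of the human diets on the left and for pellet on the right, with black squares and standard errors for the fit over all 24 arrays, filled circles for labelled batch 1 and open triangles for labelled batch 2. For the human diets Per1 lies at -0.66 and -0.67 in the 2 batches, while for pellet Per3 lies at 0.04 and -1.26 and Cry2 at -0.04 and -0.84.

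Across all 13839 features, those in which every chimpanzee array lay above all 12 arrays of the human diets numbered 2, or 0.0145% of features, and these were Per1 and Per2. The same 2 genes, again 0.0145%, had every chimpanzee array above all 18 others. Chimpanzee arrays lay above all pellet arrays in 39 features, 0.282%, with Per1, Per2, Cry1 and Ciart among them. Pellet arrays lay below all 18 others in 3 features, 0.0217%, none of them among the 6 genes. Since the genes were chosen on these contrasts, the counts describe the choice and nothing is read from them. Over all features the median log2 difference was 0.01 for human minus chimpanzee and -0.14 for pellet minus chimpanzee, beside medians of -0.29 and -0.73 over the 6 genes.

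The batch difference was tested on the 18 arrays of the chimpanzee, fast food and cafeteria diets, with diet in the model, and answers whether the clock genes also moved with the processing. Per3 was higher in labelled batch 2, at 7.19 to 7.66 on the log2 scale, than in labelled batch 1, at 6.72 to 7.10, with no overlap between the 9 arrays of each. The log2 difference was 0.44 (SE 0.07, limma adjusted p = 6.3e-05). It was 0.36 and no longer called with the array SD as a covariate (limma adjusted p = 0.0548), and 0.12 and not called with all 24 arrays as labelled (limma adjusted p = 0.978). Cry2 was also higher in labelled batch 2, by a log2 difference of 0.23 (SE 0.07, limma adjusted p = 0.010), although its batches overlapped, at 7.80 to 8.29 and 7.51 to 8.10, and quantile normalization of the table once more turned the difference to -0.05. The call of Cry2 was also lost under the 2 settings given for Per3. Per2 missed the threshold at 0.18 (SE 0.07, limma adjusted p = 0.0502), and Cry1 at 0.12 (SE 0.08, limma adjusted p = 0.245). Ciart differed between the batches by 0.06 on the log2 scale (SE 0.10, limma adjusted p = 0.647) and Per1 by 0.02 (SE 0.12, limma adjusted p = 0.921). The 2 genes called are 2 of 6, where 49.7% of all features were called and 40.3% were called as higher in labelled batch 2, a share no higher than that of features at large. Among the other probe sets of Per3, 1460662_at was higher in labelled batch 2 by a log2 difference of 0.63 (SE 0.09, limma adjusted p = 2.4e-05, over all probe sets) and 1421086_at by 0.29 (SE 0.09, limma adjusted p = 0.014). The other 3 were not called, with log2 differences of 0.20 for 1442243_at (limma adjusted p = 0.15), 0.17 for 1458176_at (limma adjusted p = 0.24) and -0.13 for 1441445_at (limma adjusted p = 0.12).

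On pellets the batch difference ran the other way. Labelled batch 2 lay below labelled batch 1 in each of the 6 genes, with log2 differences of -0.86 for Per3, -0.70 for Per2, -0.63 for Cry2, -0.38 for Ciart, -0.35 for Cry1 and -0.15 for Per1. The limma interaction of diet and batch over all 24 arrays was called for Per3 (adjusted p = 0.0018), Cry2 (adjusted p = 0.0056) and Per2 (adjusted p = 0.018). It was not called for Cry1 (adjusted p = 0.15), Ciart (adjusted p = 0.43) or Per1 (adjusted p = 0.84). These are 3 of 6 genes, where 50.7% of all features were called, a share at the level of the background. With the pellet arrays left out, or with their batch labels exchanged, the interaction was called for 0 of the 6 genes and 0 of the 13839 features. It was also called for 0 of the 6 genes with the array SD as a covariate.

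The array SD moved with these levels. Over the 24 arrays the Pearson correlation between the array SD and the log2 level was 0.86 for Cry2 (Spearman's rho 0.82), 0.83 for Per3 (rho 0.85), 0.71 for Cry1 (rho 0.64), 0.60 for Ciart (rho 0.35), 0.57 for Per2 (rho 0.42) and 0.27 for Per1 (rho 0.24). Without the 2 arrays whose SD was farthest from the median these correlations were 0.78, 0.72, 0.57, 0.37, 0.45 and 0.36. Such correlations are common on these arrays, since 31.4% of all features had a higher one than Cry2 and 68.2% a higher one than Per1. With the array SD as a covariate, pellet minus chimpanzee was -0.37 on the log2 scale for Per3 and -0.26 for Cry2, and -0.73 for Per1 and -1.31 for Per2.

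**Figure D4:**
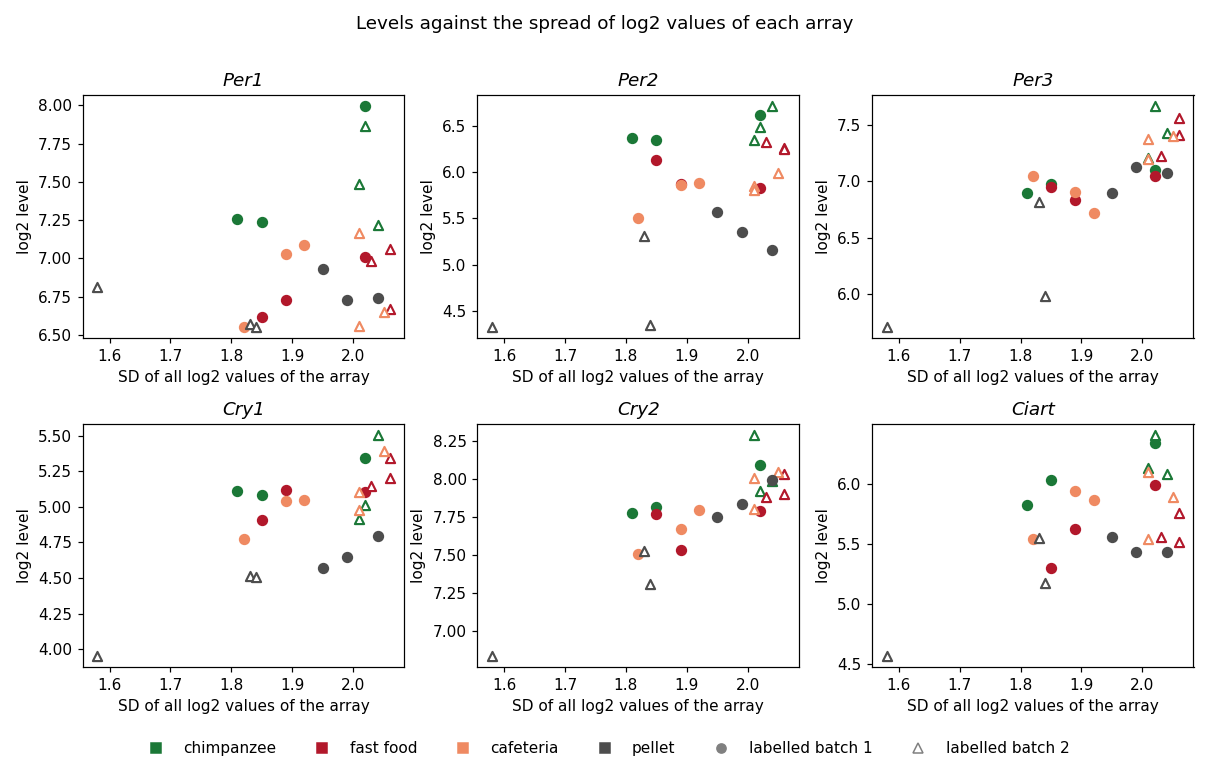
The log2 level of each gene (vertical axes) is plotted against the SD of all log2 values of the array (horizontal axes) for the 24 arrays, coloured by diet, with filled circles for labelled batch 1 and open triangles for labelled batch 2. The levels of Cry2 and Per3 climb with the array SD, with correlations of 0.86 and 0.83, while the chimpanzee points of Per1 and Per2 lie above those of the other diets.

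Pairs of the 6 genes differed in how far their levels went together. Over the 24 arrays the Pearson correlation between log2 levels was 0.85 for Per2 with Cry1 (rho 0.74) and 0.85 for Per3 with Cry2 (rho 0.81), while the 5 pairs with Per1 ranged from 0.31 with Per3 (rho 0.25) to 0.65 with Ciart (rho 0.63). Over the 18 arrays other than pellet, Per1 with Ciart (0.71) and Per1 with Per2 (0.66) were the highest of the 15 pairs. These values hold the differences between diets and batches, which the arrays share. After the mean of each diet and batch was taken from the levels, the 10 pairs without Per1 correlated at 0.44 to 0.65 and the 5 pairs with Per1 at -0.09 to 0.26. How far pairs of other features correlate in this way was not computed, so nothing is read from this split. The median over the 15 pairs was 0.46, which was 0.28 without pellet batch 2 replicate 1 and 0.22 without all pellet arrays. The features whose array-to-array pattern within diet and batch was most like that of Per1 were Fbxo42 (r = 0.88), Ercc5 (0.83), Ski (0.81), Ints1 (0.78) and Ociad2 (0.77), over 24 arrays. For Per2 they were Bcs1l (r = 0.86), Grip1 (0.845), Zfp263 (0.844), Gnpat (0.844) and Fam13a (0.838). Within pellet batch 2 the SD of Per2 was 0.56, against 0.04 to 0.21 in the other diets and batches. The correlations of these features with Per2 were not computed without those arrays. Neither set of 5 holds a gene of the 4 clock lists described below, which make up 22 of the 13839 features.

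The rest of the clock was described by 4 lists of 29 genes, of which 22 were measured. None of the 22 passed the limma test for human minus chimpanzee or for pellet minus chimpanzee, where limma called 0% and 0.00723% of all features, and 277 and 1346 features had an unadjusted p under 0.05. A lower mean than on the chimpanzee diet was found for 13 of the 22 on the human diets and for 20 of the 22 on pellets, against 6299 and 9719 of the 13839 features. Their median log2 difference was -0.02 for human minus chimpanzee and -0.26 for pellet minus chimpanzee, against 0.01 and -0.14 over all features. The activators Clock, Npas2 and Arntl, the gene of BMAL1, had medians of 0.00 and -0.18 for these comparisons. The 4 output factors measured had the lowest medians among the 4 lists, at -0.17 and -0.62, and they hold the 3 genes of the clock lists with an unadjusted limma p under 0.01 for pellet minus chimpanzee, a level that 177 features reached as lower on pellets and 52 as higher. Dbp, which acts through D-boxes and is driven through E-boxes, had a mean log2 level of 9.36 ± 0.34 on the chimpanzee diet and 8.64 ± 0.36 on pellets (SD, n = 6), with 9.20 and 9.11 on the cafeteria and fast food diets. Bhlhe40, a repressor that competes for E-boxes, was at 8.48 ± 0.33 on the chimpanzee diet and 7.48 ± 0.81 on pellets (SD, n = 6). Its SD was 0.22 with cafeteria food and 0.25 with fast food, so its pellet arrays were the most spread. Hlf, of the same family as Dbp, was at 8.22 ± 0.34 with chimpanzee food and 7.70 ± 0.43 with pellets (SD, n = 6). The pellet differences of the clock lists, these 3 genes included, are given without a split by labelled batch. Whether they held on both sets of pellet arrays was not tested.

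In the batch comparison 13 of the 22 clock genes were called by limma, 11 of them higher in labelled batch 2, where 49.7% of all features were called and 40.3% were called as higher. Nr1d2, a nuclear receptor that represses BMAL1's gene, was higher by a log2 difference of 0.69 (SE 0.11) and Tef by 0.47 (SE 0.09), beside the 0.44 of Per3. Csnk1d, a kinase that marks period proteins for degradation, was lower by a log2 difference of -0.91 (SE 0.16). Gsk3b, another kinase of the clock, was higher by 0.80 (SE 0.12).

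Other gene lists had a lower mean on the human diets, as Per1 did, and their part in the levels of Per1 was not tested. All 8 measured genes of 9 that cAMP and neuronal activity induce had a lower mean on the human diets than on the chimpanzee diet, with a median log2 difference of -0.39 and none called by limma. By diet the median difference from chimpanzee was -0.61 for cafeteria, -0.16 for fast food, with 7 genes lower and 1 higher, and -0.325 for pellet. Per1 was at -0.67, -0.67 and -0.79 in the same comparisons. Averaged over the list, single arrays lay at 7.30 to 8.25 on the log2 scale with chimpanzee food, 7.11 to 8.03 with fast food, 6.59 to 7.63 with cafeteria food and 6.68 to 7.83 with pellets. All 8 of 8 glucocorticoid target genes also had a lower mean on the human diets and on pellets, with median log2 differences of -0.27 and -0.81 from chimpanzee and none called by limma. The list average per array was 7.44 to 8.07 with chimpanzee food, 7.10 to 7.82 with fast food, 6.90 to 7.73 with cafeteria food and 6.06 to 7.33 with pellets. In both lists the chimpanzee arrays overlapped with those of the human diets, and in the glucocorticoid list they lay above all pellet arrays. Among single features, 39 of 13839, or 0.282%, had every chimpanzee array above all pellet arrays. No such share was computed for averages over 8 genes, so this one is not a background for the list average. A lower mean than on the chimpanzee diet was found for 9719 features on pellets and for 6299 on the human diets. The list averages were not split by labelled batch. Sult1a1, whose product conjugates sulphate to phenols, had average log2 levels of 5.73 ± 0.29 with chimpanzee food, 5.24 ± 0.38 with cafeteria food, 5.07 ± 0.45 with fast food and 4.79 ± 0.19 with pellets (SD, n = 6).

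The 6 measured of 7 cerebellum markers had a median log2 difference of 0.71 for human minus chimpanzee and the 7 thalamus markers one of 0.49, with none called by limma. The median was 0.21 for the 7 measured oligodendrocyte markers, all with a higher mean on the human diets, -0.09 for the 5 of cortex and hippocampus and -0.05 for the 6 of striatum. For pellet minus chimpanzee the medians were 0.21 for cerebellum, 0.14 for thalamus and -0.06 for oligodendrocytes. They were -0.40 for cortex and hippocampus and -0.22 for striatum, against -0.14 over all features. The list average of the cerebellum markers per array was 5.77 to 6.38 with chimpanzee food, 5.75 to 7.30 with fast food, 6.13 to 7.80 with cafeteria food and 5.07 to 8.57 with pellets. The 7 measured of 11 markers of hypothalamus and suprachiasmatic nucleus, the site of the master clock, had a list average per array of 5.26 to 6.74 with chimpanzee food, 5.85 to 6.999 with fast food, 5.21 to 7.23 with cafeteria food and 5.75 to 6.81 with pellets. The part of these regions and cells in the levels of the clock genes was not tested.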

How the data were processed

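RNA of 24 mouse brain hemispheres was hybridised to Affymetrix whole-genome mouse arrays. The deposited table gives 45101 probe sets on a log2 scale, as the authors made it with the RMA method, including quantile normalization; per the study's methods 1 pellet array was left out for RNA degradation, but it is not named in the sources used here, and all 24 were used. Diet, batch and replicate number came from the sample labels. Control probe sets (64) and those annotated to several genes were removed, and the remainder had to reach a mean log2 value of 4.069, the median. Each gene was read from its probe set with the highest mean, which gave 13839 features (11645 genes and 2194 probe sets without a gene). All 13 probe sets of the 6 genes passed the filter.

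Diets were compared in limma 3.58.1 (R 4.3.3) with diet and batch as terms, and the standard errors come from that fit. The batch difference was fitted on the 18 arrays other than pellet, and the interaction on all 24, with p-values adjusted by the Benjamini-Hochberg method over all features and a threshold of 0.05. The script was tested on simulated data. The values of single probe sets were fitted over all 45037 probe sets. Alternatives covered normalization, array weights, the spread of the arrays, the batch term and labels, the filter, the probe set, and each array left out in turn. The genes and lists were chosen with earlier results of these data known. By rule, all probe sets of the 6 genes are named, then clock list genes at an unadjusted p under 0.01 and the 5 features most correlated with Per1 and with Per2; Gsk3b, Sult1a1 and the genes named for their batch difference were picked once their values were known. The number of arrays limits the precision. Array values have no depth, and promoter sequences are from RefSeq. Plots were made in Python 3.11.15 using matplotlib 3.10.9.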

Additional observations from a re-analysis of the deposited data

Results flagged for a closer look

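Dixon's rule was applied to the 6 arrays of each diet for each of the 6 genes, 24 groups in all, and marked 2 of them, where chance marks about 1 in 20 groups. Per2 had 1 cafeteria array at a log2 level of 5.502, batch 1 replicate 1, below the other 5 cafeteria arrays, which lay at 5.81 to 5.98. Cry1 had 1 pellet array at 3.949, batch 2 replicate 1, below the other pellet arrays at 4.51 to 4.80, and this array also had the lowest array SD, at 1.58.

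The batch difference depended on the diet in 3 genes, by limma's interaction test over all features. For Per3 the adjusted p was 0.0018, with labelled batch 2 minus labelled batch 1 at 0.44 on the log2 scale over the 3 diets other than pellet and at -0.86 on pellets. For Cry2 the adjusted p was 0.0056, with 0.23 and -0.63. For Per2 the adjusted p was 0.018, with 0.18 and -0.70. The interaction was called in 50.7% of all features and in none once the pellet arrays were left out.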

How the results depend on the processing

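Of the 1885 values computed under an alternative, 1701 were counted as the same. A diet difference of a gene had to move by less than the residual SD of that gene. A batch difference or interaction of a gene had to keep its side of the threshold, whatever its size. Counts of features and the median correlation had to stay near their main value. A change of sign was counted only for differences that had been called. In Per2, pellet minus chimpanzee (-1.47 on the log2 scale) became -1.12 with array weights, -1.08 in labelled batch 1, -1.85 in labelled batch 2, -1.03 without the pellet arrays of labelled batch 2, -0.0645 with probe set 1417603_at, -0.53 with 1457350_at and -0.69 with the mean of its probe sets. With 1417603_at, human minus chimpanzee became -0.18 and pellet minus fast food turned to 0.15. In Per3 (-0.61), pellet minus chimpanzee became 0.0431 in labelled batch 1, 0.0433 without the pellet arrays of labelled batch 2, -1.26 in labelled batch 2, -0.0658, -0.14, -0.10 and -0.0706 with probe sets 1421086_at, 1441445_at, 1442243_at and 1460662_at, and -0.20 with the mean of its probe sets. Without the pellet arrays of labelled batch 2 it became -0.43 in Cry1 and -0.0064 in Cry2, and in Cry2 it was -0.0388 in labelled batch 1 and -0.84 in labelled batch 2. The cause of these shifts was not tested.

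The F test over the 4 diets called 6 features, and 1 to 8 when 1 array was left out, with 1 without fast food batch 1 replicate 3 or fast food batch 2 replicate 1. It called 2 after quantile normalization once more, 13 with array weights, 2 without the batch term, 19 with exchanged batch labels on the pellet arrays, 27 in labelled batch 1, 5977 in labelled batch 2, 0 and 3 in batches 1 and 2 with those labels exchanged, 29 with the array SD as a covariate and 601 without the pellet arrays of labelled batch 2. With a replicate block the F test called 1 feature. Replicate numbers did not pair the arrays: deviations of arrays of 1 batch and number correlated at -0.512 to 0.484, and 8 of 24 arrays correlated best with their own number.

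The batch difference called 6880 features and 2 of the 6 genes, but 0 and 0 with all 24 arrays as labelled and 966 and 0 with the array SD as a covariate. Quantile normalization once more left 1 of the 6 and turned the difference of Cry2 to -0.0474. The uncalled differences of Per1 and Ciart turned to -0.20 and -0.06 there, and to -0.39 and -0.33 with the array SD. The interaction called 7017 features and 3 of the 6 genes, but 0 and 0 without the pellet arrays or with their labels exchanged, and 4 and 0 with the array SD. The median correlation within diet and batch, 0.46, became 0.58 after each array was centred on its median, 0.22 without the pellet arrays and 0.28 without pellet batch 2 replicate 1. Alternatives on the array SD, on the pellet arrays of labelled batch 2 and on single batches with exchanged pellet labels were chosen after the data were seen.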
